A study of Macaca mulatta with 24 samples.

Results

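Potassium channel genes were described in the layers of the lateral geniculate nucleus (LGN), the thalamic station between retina and visual cortex, of 2 rhesus macaques that had lost vision through 1 eye from birth. The genes were chosen by name: a probe set entered when the annotation of the array gave it exactly 1 symbol beginning with KCN and its signal reached 100 in at least 1 of 24 arrays. This took 86 of 112 KCN probe sets, which stand for 61 of 74 KCN genes, among 37623 of 52766 probe sets of the whole array that passed the same minimum. The 26 probe sets below it included every probe set of 13 genes (KCNA10, KCNE3, KCNG3, KCNG4, KCNH1, KCNH7, KCNJ14, KCNK7, KCNMB3, KCNN4, KCNQ5, KCNRG and KCNS3), and nothing is said here of those genes. Just inside the minimum were KCNK2 and KCNK17, with highest signals of 104 for each, and just outside were KCNH7 with 90.7 and KCNK7 with 89.3. The minimum was met unevenly: 35 of the 86 probe sets reached it in all 24 arrays, 27 in 1 to 5 arrays and 9 in a single array.

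In 1 animal the left eye wore an opaque dark contact lens for 2 months, and in the other the lids of the left eye were closed by tarsorrhaphy, a surgical suture, for 4 months. Duration, method and animal therefore cannot be told apart. Each of the 6 layers of both LGNs was cut out by laser, pooled over sections of that LGN, and run on 1 Rhesus Macaque Genome Array. Layers 1 and 2 are magnocellular, with large relay neurons for motion and contrast, and layers 3 to 6 are parvocellular, with small relay neurons for color and fine detail; the koniocellular layers between them were not captured. The deprived eye reaches ipsilateral layers 2, 3 and 5 and contralateral layers 1, 4 and 6. The parvocellular groups were 8 deprived and 8 nondeprived arrays, and the magnocellular groups 4 and 4. The nondeprived layers lie in the same deprived animals, and no normally reared animal stands beside them. P-values measure the spread between layers of 2 animals. Each sample holds all cells of a layer, so that fewer cells of a type and less RNA per cell cannot be told apart.

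Potassium channels set the resting potential of a cell, end each spike and limit how fast a neuron fires. The pore-forming families are voltage-gated (KCNA to KCND, KCNH, KCNQ), inwardly rectifying (KCNJ), leak channels with tandem pores (KCNK), and channels opened by calcium or sodium (KCNMA, KCNN, KCNT). Other members do not conduct alone but change those that do (KCNAB, KCNE, KCNF, KCNIP, KCNMB, KCNS, KCNV). Thalamic relay neurons use such channels to pass between burst and tonic firing, and astrocytes use inward rectifiers to take up the potassium that firing neurons release.

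The arrays were scaled to a trimmed mean of 500 and were similar to each other with a few exceptions. The ipsilateral layer 2 of the 2-month animal, a deprived magnocellular layer, gave an array that stood apart, with a mean correlation to the others of 0.811 against 0.885 to 0.919, a share of probe sets at the minimum of 57.1%, and a ratio of the 3' to the 5' GAPDH signal of 50.8 against at most 14.3 elsewhere. The median of this ratio, which rises as RNA is shorter, was 5.08 in deprived and 4.74 in nondeprived parvocellular arrays, and 8.11 in deprived and 4.36 in nondeprived magnocellular arrays. The contralateral layers 3 and 4 at 2 months had 53.0% and 52.9% of probe sets at the minimum, and the other arrays 40.6% to 48.4%. Among the other arrays, the contralateral layer 2 at 2 months, a nondeprived magnocellular layer, had the lowest correlation (0.885) and the highest GAPDH ratio (14.3). Results that rest on the distant array are given with and without it where they were refitted. Of 6 listed relay neuron markers 2 were measured, TCF7L2 and PVALB, and both reached the minimum in all 24 arrays. So did 6 of 6 measured markers of neurons, 2 of 4 of GABAergic neurons and 7 of 8 of astrocytes. The same held for 3 of 3 of oligodendrocytes, 5 of 11 of microglia and 4 of 4 of vascular cells.

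Signals of different probe sets are not on 1 scale, and each level below is read across arrays of its own probe set. Among the shaker-type channels, which keep axons and their terminals from firing repeatedly, KCNA2 gave 18156 ± 3581 (SD, n = 16) in parvocellular and 22144 ± 4579 (SD, n = 8) in magnocellular arrays, with a range of 13285 to 30284. KCNA5 gave 404 ± 163 and 341 ± 132. Of the beta subunits that ride on these channels, KCNAB1 gave 5222 ± 841 in parvocellular and 4698 ± 1113 in magnocellular arrays, and KCNAB2 4853 ± 1514 and 6285 ± 1474, by probe sets that reached the minimum in all 24 arrays. Another KCNAB2 probe set, MmuSTS.2924.1.S1_at, did so in 10 arrays. KCNAB3 was dim, with 119 ± 30.8 and 139 ± 122, and reached the minimum in 15 arrays.

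For the fast channels of high-frequency firing, KCNC4 gave 480 ± 121 (SD, n = 16) in parvocellular and 456 ± 194 (SD, n = 8) in magnocellular arrays, and KCNC1 292 ± 174 and 609 ± 575. The A-type channels were dim, with KCND1 at 102 ± 34.0 and 63.9 ± 42.1 and KCND2 at 113 ± 91.3 and 88.3 ± 79.1, and none of the 3 KCND probe sets reached the minimum in all arrays. Their calcium-binding partners KCNIP2 and KCNIP4 did, with 401 ± 134 and 335 ± 104 in parvocellular arrays and 392 ± 161 and 306 ± 129 in magnocellular arrays. The ether-a-go-go channels KCNH2 and KCNH8 gave 1559 ± 424 and 1106 ± 248 in parvocellular arrays and 1437 ± 508 and 962 ± 244 in magnocellular arrays. KCNQ3, a subunit of the M-current that acetylcholine closes, gave 525.9 ± 124 and 536 ± 154, and KCNQ1 gave 72.4 ± 33.1 and 58.2 ± 30.9.

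The inward rectifier KCNJ2, which holds the resting potential, gave 6293 ± 744 (SD, n = 16) in parvocellular and 7071 ± 1267 (SD, n = 8) in magnocellular arrays. Among leak channels, KCNK5 gave 2414 ± 802 and 2647 ± 1055 from a probe set whose name ends in _s_at, a type that may match several transcripts, and KCNK1 gave 1880 ± 616 and 2187 ± 708. Of the channels opened by calcium, KCNMA1, the large-conductance pore, gave 115 ± 23.5 and 114 ± 29.8 by 1 probe set, and another, MmugDNA.8277.1.S1_s_at, ranged from 6.71 to 976. Its brain beta subunit KCNMB4 gave 6341 ± 701 and 5956 ± 1365, and KCNMB2 206 ± 79.2 and 164 ± 75.7. The small-conductance channels KCNN2 and KCNN1 gave 1509 ± 310 and 140 ± 53.3 in parvocellular arrays and 1506 ± 438 and 149 ± 78.5 in magnocellular arrays. The silent subunit KCNF1 gave 1448 ± 536 and 1665 ± 641. KCNE1, KCNE5, KCNT1 and KCNV2 had means below 100 over all parvocellular and over all magnocellular arrays, from 46.2 to 96.5. Levels of the genes that reached the minimum everywhere varied between arrays of a group as well as between groups, as the map by array shows.

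**Figure D1:**
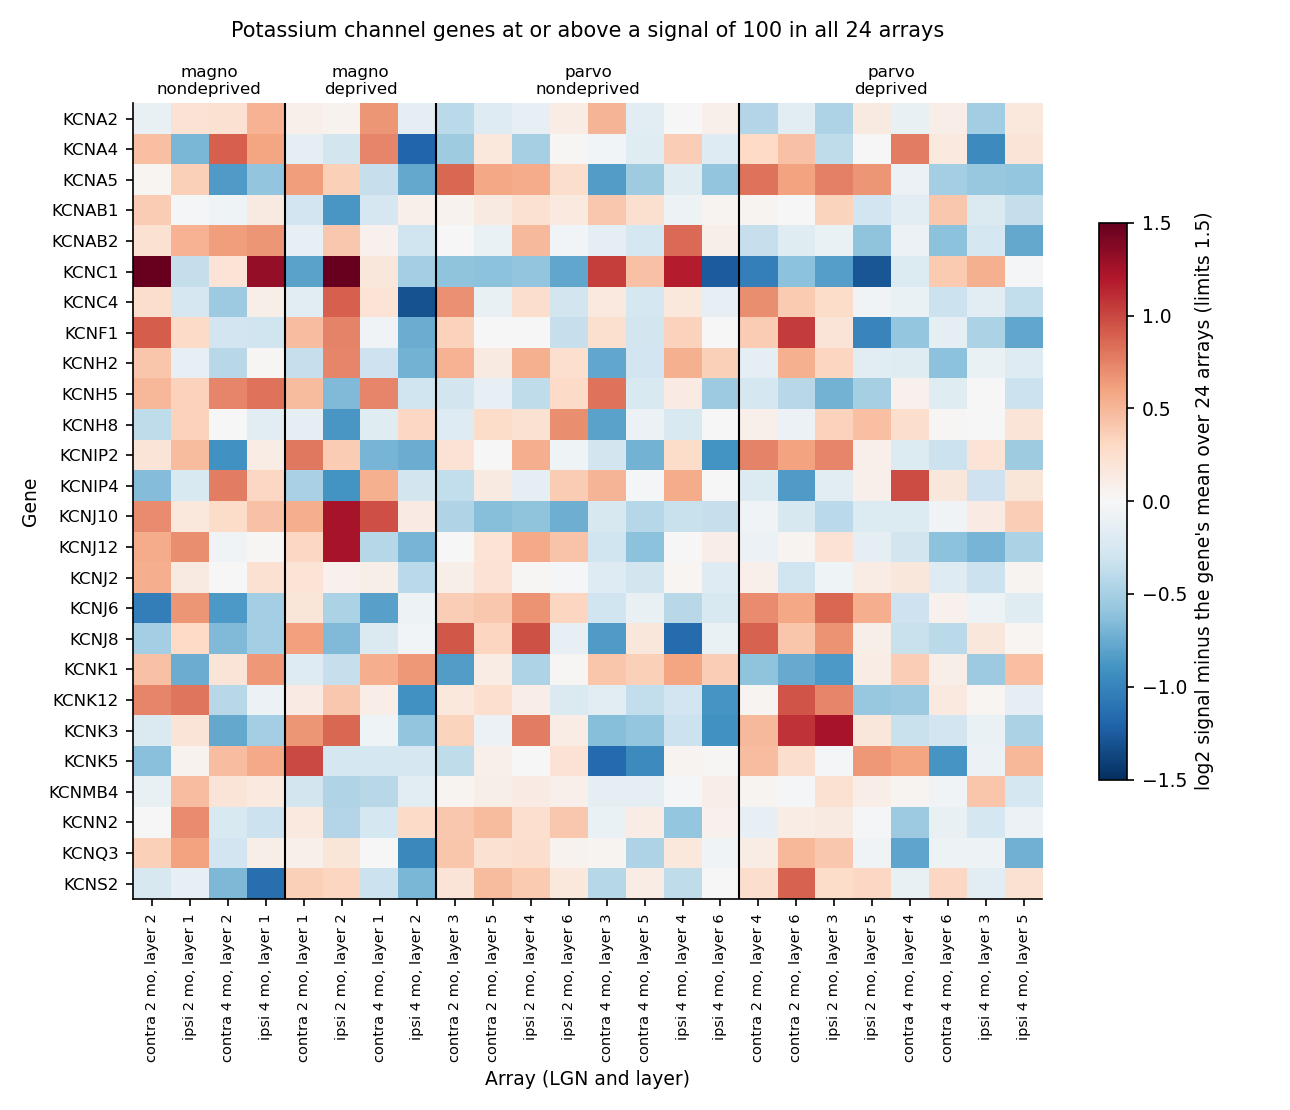
Log2 signal of the 26 potassium channel genes with a signal of 100 or more in all 24 arrays (rows), each minus its own mean, in every array (columns, by layer class and deprivation); red is above and blue below the gene's mean, on a linear color scale that ends at 1.5. KCNJ10 was above its mean in all 8 magnocellular arrays, and 2 values of KCNC1, in the layer 2 arrays of the 2-month animal, lay beyond the scale.

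The first comparison asked which channels differ between the layer classes. Across 24 arrays, 4 KCN probe sets of 3 genes were higher in parvocellular layers (both probe sets of KCNB2, and 1 each of KCNS2 and KCNJ6) and 2 of 2 genes were higher in magnocellular layers (KCNJ10 and KCNJ16), at an adjusted p under 0.05 in limma with Benjamini-Hochberg adjustment over all 37623 probe sets. Of all probe sets, 2.25% were higher and 1.35% lower in parvocellular layers. The 6 calls are 6.98% of the 86 members, which is more than the 2.25% and 1.35% of all probe sets added up. At an unadjusted p under 0.05 the share of members was also the larger, with 19.8% against 16.4% of all probe sets. Whether members differed between layer classes more often than other probe sets was not tested. The median log2 difference, parvocellular minus magnocellular, was -0.04 over the members, with 41 of 86 positive and a range of -0.996 to 1.05, and -0.03 over all probe sets.

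**Figure D2:**
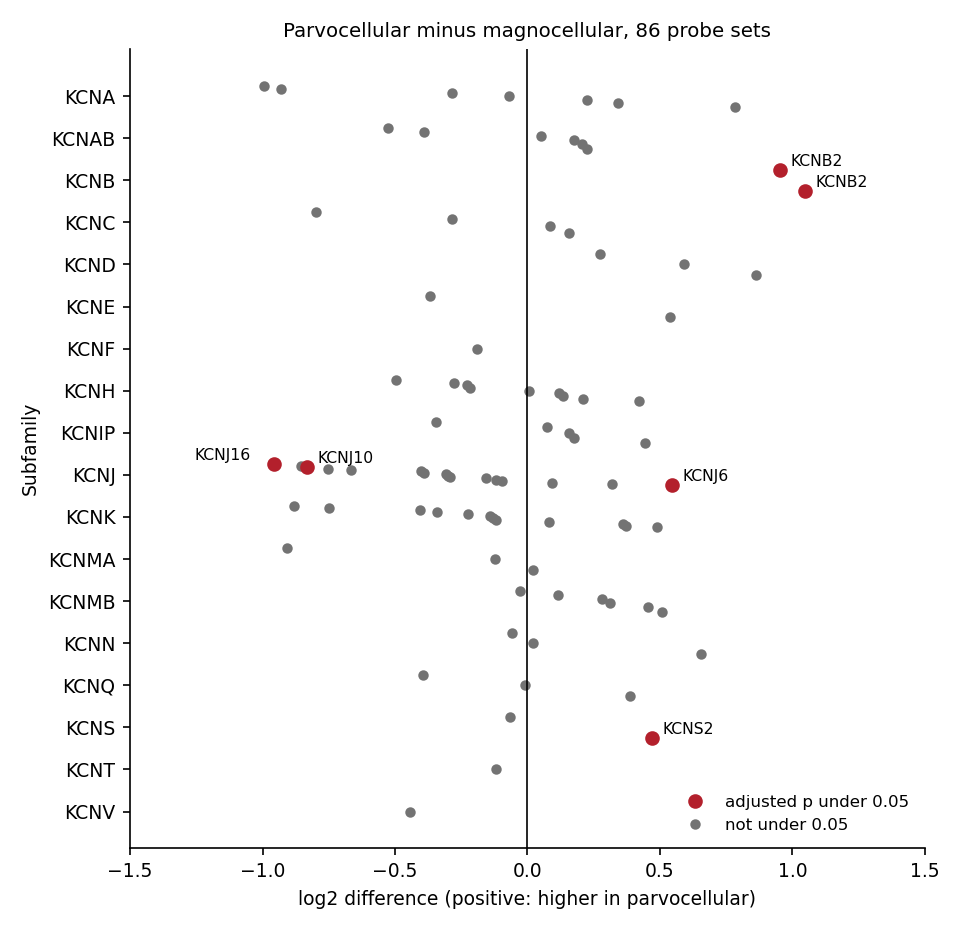
Log2 difference between parvocellular and magnocellular layers (horizontal axis) of each of the 86 KCN probe sets, by subfamily (vertical axis); each point is 1 probe set, fitted over 24 arrays, and red points have an adjusted p under 0.05. The 6 red points belong to KCNB2 (both points), KCNS2 and KCNJ6 on the parvocellular side and to KCNJ10 and KCNJ16 on the magnocellular side.

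KCNJ10 and KCNJ16 encode inward rectifier subunits that assemble with each other in astrocytes, where they carry potassium away from active neurons. The KCNJ10 probe set MmugDNA.38733.1.S1_at gave 3909 at the lowest, 5306 at the median and 8366 at the highest in 16 parvocellular arrays, and 7019, 9093 and 15189 in 8 magnocellular arrays. Magnocellular arrays were the higher, and the classes overlapped only between 7019 and 8366. The means were 5439 ± 1134 (SD, n = 16) and 9839 ± 2868 (SD, n = 8), and the log2 difference was -0.83 (SE 0.12, 95% interval -1.08 to -0.58, adjusted p = 0.000119 in limma), with -0.97 and -0.85 in the contralateral and -1.18 and -0.33 in the ipsilateral LGNs at 2 and 4 months. The layer means followed the classes, with 9524 and 10154 in layers 1 and 2 and 5182 to 5735 in layers 3 to 6.

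The difference of KCNJ10 passed the test in each state of deprivation, with the distant array among the deprived layers. Within nondeprived layers the highest parvocellular signal, 5484, lay below the lowest magnocellular signal, 7218, and the log2 difference was -0.87 (SE 0.17, adjusted p = 0.00746). Within deprived layers it was -0.80 (adjusted p = 0.0196 in limma), in the same direction in 3 of 4 LGNs. This value includes the distant array, which had the highest KCNJ10 signal of all, and no fit of the deprived layers without that array is given. Only the difference over all layers was refitted without the distant array, with -0.71 (adjusted p = 0.000159 in limma). The other KCNJ10 probe set, MmuSTS.2930.1.S1_at, with signals of 147 to 343, did not share the difference (0.09, adjusted p = 0.816).

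KCNJ16 was dim, with 38.1, 71.6 and 131 as the lowest, median and highest signal in parvocellular arrays and 112, 128 and 176 in magnocellular arrays. All 8 magnocellular arrays and 3 of 16 parvocellular arrays reached the minimum. The means were 74.8 ± 28.5 (SD, n = 16) and 137 ± 22.9 (SD, n = 8), and the log2 difference was -0.96 (SE 0.22, adjusted p = 0.0132), with -0.34 to -1.54 in the 4 LGNs. Without the distant array it was -0.90 (adjusted p = 0.0310), and with the GAPDH ratio in the model -0.91, which did not pass (adjusted p = 0.0733).

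Astrocyte markers moved in part with these genes. Of 8 measured markers of 10 listed, 5 were lower in parvocellular layers, with a median log2 difference of -0.22, and 1 passed the test: GLUL, glutamine synthetase, with -0.32 (adjusted p = 0.0352). GFAP gave -0.28 (adjusted p = 0.508) and the glutamate transporter SLC1A3 -0.36 (adjusted p = 0.0885). The summed astrocyte signal ranged from 66748 to 104172 in parvocellular and from 70017 to 131648 in magnocellular arrays, and no measured marker of the list other than SOX9, with signals of 4.41 to 397, came near 0. Of other marker lists, NEFH (-0.66, adjusted p = 0.0023 in limma) was lower in parvocellular layers among 6 measured neuronal genes, of which 3 were positive and 3 negative. GAD1 (-0.56, adjusted p = 0.0021) and DLX1 (-1.95, adjusted p = 0.0102) were lower among 4 GABAergic genes, while GAD2 (0.40) and LHX6 (0.61) were positive. DLX1 was dim, with signals of 5.65 to 230. CD68 (-0.46, adjusted p = 0.0294) was lower among 11 microglial genes, of which 4 were positive and 7 negative. No call was made among 3 oligodendrocyte, 4 vascular and 2 relay neuron genes. The part of these cell types in the difference of KCNJ10 and KCNJ16 was not tested.

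KCNB2, a delayed rectifier of somata and dendrites that acts in repeated firing, was higher in parvocellular layers by both of its probe sets. The probe set MmugDNA.28479.1.S1_at gave 291, 633 and 1092 as lowest, median and highest in parvocellular arrays and 90.7, 343 and 698 in magnocellular arrays. The 2 lowest signals came from the nondeprived magnocellular layers at 4 months, and the 4 layer means of parvocellular layers, 607 to 687, were all above those of layers 1 and 2, 323 and 388. The means were 647 ± 213 (SD, n = 16) and 355 ± 201 (SD, n = 8), with a log2 difference of 1.05 (SE 0.17, 95% interval 0.692 to 1.404, adjusted p = 0.000472) and 0.44 to 1.81 in the 4 LGNs. The second probe set, MmuSTS.782.1.S1_at, gave 144, 202 and 375 against 76.4, 103 and 152. Its means were 219 ± 69.3 and 111 ± 27.8, with a log2 difference of 0.95 (SE 0.18, adjusted p = 0.00253) and 0.61 to 1.32 in the 4 LGNs.

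Between nondeprived layers both KCNB2 probe sets passed the test as well, with 1.41 (adjusted p = 0.00205) and 1.05 (adjusted p = 0.0431). Between deprived layers neither did, with 0.69 (adjusted p = 0.199) and 0.86 (adjusted p = 0.116). Over the members, 2 probe sets were higher and 1 was lower in parvocellular layers within nondeprived layers, beside 0.805% and 0.372% of all probe sets, and 0 were higher and 1 was lower within deprived layers, beside 0.595% and 0.38%. The lower 1 was KCNJ10 in each state, and the 2 higher were those of KCNB2.

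KCNS2 is a silent subunit that joins KCNB channels and shifts their gating. Its probe set MmugDNA.14274.1.S1_at gave 377, 584 and 930 in parvocellular arrays and 231, 416 and 650 in magnocellular arrays. The means were 578 ± 133 (SD, n = 16) and 430 ± 150 (SD, n = 8), and the log2 difference was 0.47 (SE 0.12, adjusted p = 0.0285), with 0.19 to 0.82 in the 4 LGNs and 0.51 (adjusted p = 0.0226) without the distant array. The classes overlapped between 377 and 650. The call was lost with quantile normalization (adjusted p = 0.0725), with median scaling (0.0913), with the GAPDH ratio in the model (0.0792) and in 5 of 24 fits that left out 1 array. Those arrays were magnocellular nondeprived replicates 2, 3 and 4 and deprived replicates 3 and 4. The second KCNS2 probe set gave -0.07 (adjusted p = 0.889). The other silent subunits did not pass, with -0.19 for KCNF1 (adjusted p = 0.653) and -0.44 for KCNV2 (adjusted p = 0.660).

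KCNJ6, an inward rectifier opened by G proteins below transmitter receptors, gave 2048, 3129 and 4960 in parvocellular arrays and 1328, 1938 and 4308 in magnocellular arrays. The means were 3215 ± 939 (SD, n = 16) and 2280 ± 1012 (SD, n = 8), with a log2 difference of 0.55 (SE 0.15, adjusted p = 0.0343) and 0.07 to 0.94 in the 4 LGNs. This call was lost without the distant array (0.42, adjusted p = 0.0931), with the GAPDH ratio in the model (0.24, adjusted p = 0.475), with median scaling (adjusted p = 0.110) and with eBayes without a trend (adjusted p = 0.0791). The signal also differed between animals, since the 8 parvocellular arrays at 2 months lay between 3410 and 4960 and the 8 at 4 months between 2048 and 2849.

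**Figure D3:**
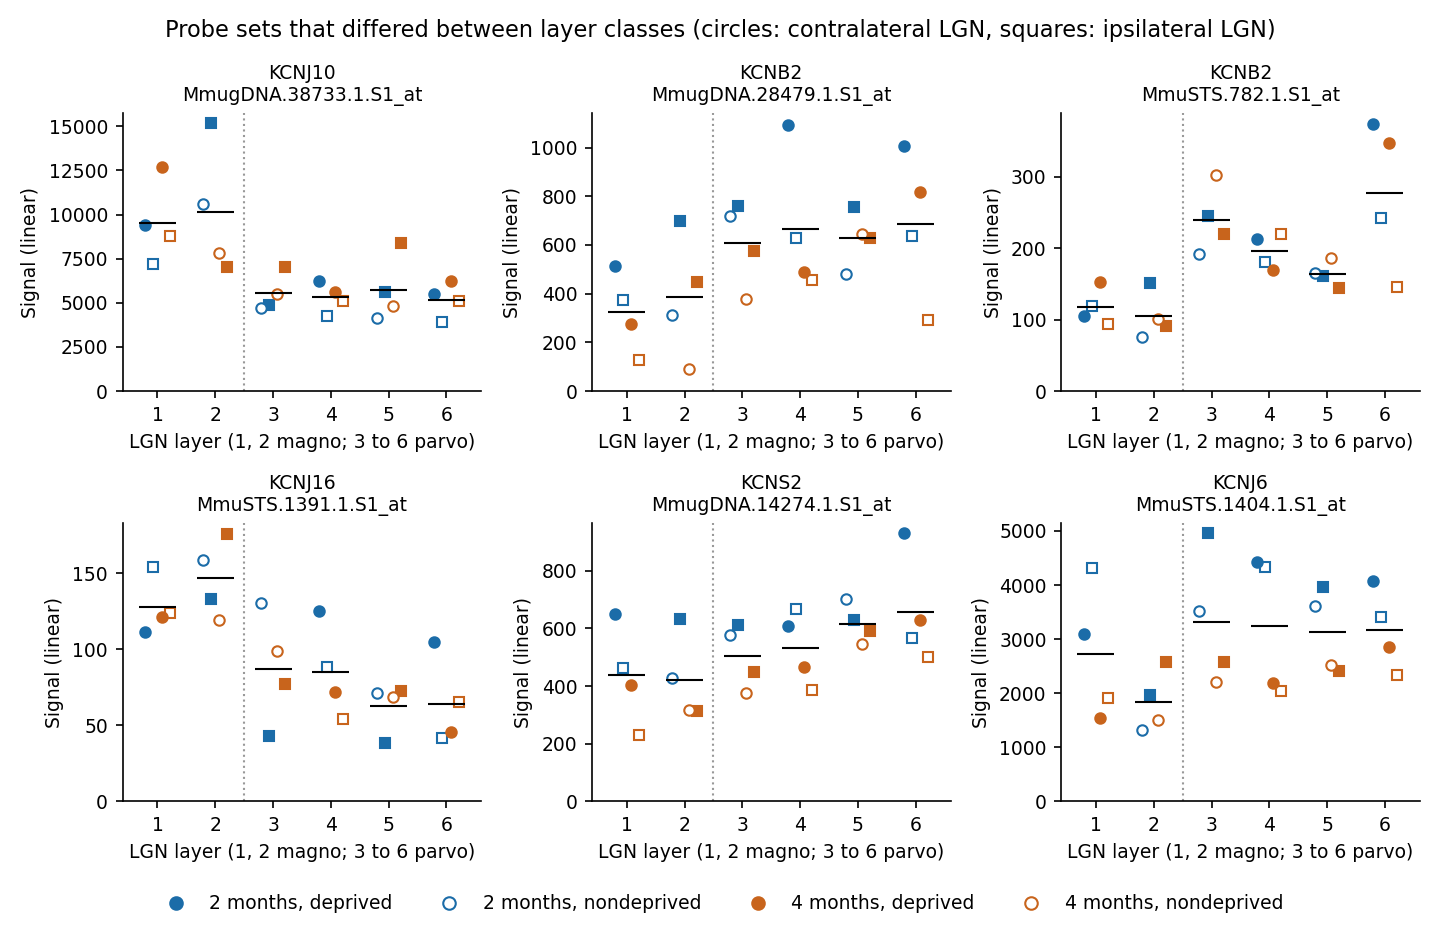
Linear signal of the 6 KCN probe sets that differed between the layer classes, in each of the 6 LGN layers; circles are contralateral and squares ipsilateral LGNs, blue 2 and orange 4 months, filled deprived and open nondeprived, and the black line is the mean of the 4 arrays of a layer. KCNJ10 and KCNJ16 lie higher left of the dotted line, in the magnocellular layers, and KCNB2, KCNS2 and KCNJ6 higher in the parvocellular layers.

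No other member passed the threshold. Within KCNJ, 13 of 16 probe sets were lower in parvocellular layers and the median was -0.30, whereas KCND (3 of 3 positive, median 0.59), KCNMB (5 of 6, median 0.30) and KCNIP (4 of 5, median 0.16) leaned to parvocellular layers. KCNH divided 5 to 4 around a median of 0.01, KCNK had 4 of 12 positive with a median of -0.14, and KCNA 3 of 7 with -0.07. The nearest to the threshold were KCNH5 with -0.50 (adjusted p = 0.0925), KCNA3 with 0.79 (adjusted p = 0.0974) and KCNAB2 with -0.39 (adjusted p = 0.101). Without the distant array 7 probe sets passed instead of 6, with KCNH5 (-0.59, adjusted p = 0.0418) and KCNA3 (0.96, adjusted p = 0.0338) added.

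KCNA1 gave -0.93 (adjusted p = 0.150), with a highest signal of 3297 in the nondeprived magnocellular layer 2 of the contralateral LGN at 2 months, where the other nondeprived magnocellular arrays gave 134 to 226. KCNC1 gave -0.80 (adjusted p = 0.256) and had its highest signal, 1862, in the same array. After the distant array, that array had the highest GAPDH ratio, 14.3. The next highest signals of KCNA1 and KCNC1, 781 and 929, came from the distant array. Of 19 genes with several member probe sets, 8 had the same sign in all of them, and KCNAB2, KCNC4, KCNH2, KCNH5, KCNH6, KCNJ10, KCNK1, KCNMA1, KCNMB4, KCNQ1 and KCNS2 did not. For the 52 members with a mean signal of at least 100, the 95% interval of the difference lay within 2-fold in either direction for 42 and within 1.5-fold for 27, which bounds the difference for most of these members but not for all.

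The second comparison asked which channels differ between deprived and nondeprived parvocellular layers, and 1 of 86 members passed: KCNJ10 rose in deprived layers. Of all probe sets, 0.585% were higher and 0.385% lower in deprived layers, and 1 call of 86 is 1.16%. At an unadjusted p under 0.05 there were 10 members, or 11.6%, against 11.4% of all probe sets. The median log2 difference, deprived minus nondeprived, was 0.04 over the members, with 46 of 86 positive and a range of -0.87 to 0.88, and -0.01 over all probe sets. The share of members past either threshold was thus close to that of the array.

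KCNJ10 gave 4902, 5917 and 8366 as lowest, median and highest in 8 deprived parvocellular arrays and 3909, 4775 and 5484 in 8 nondeprived ones. The deprived arrays were the higher, with an overlap between 4902 and 5484. The means were 6186 ± 1088 (SD, n = 8) and 4693 ± 547 (SD, n = 8), and the log2 difference was 0.39 (SE 0.09, 95% interval 0.21 to 0.57, adjusted p = 0.0355 in limma). It was positive in 4 of 4 LGNs, with 0.40 and 0.20 in the contralateral and 0.36 and 0.59 in the ipsilateral LGNs at 2 and 4 months. The call is close to the threshold: 12 of 16 fits that left out 1 array lost it, with adjusted p from 0.0252 to 0.0999 and log2 differences from 0.35 to 0.42, as did fits of either animal alone (0.38 at 2 months and 0.40 at 4 months). The arrays whose absence lost it were nondeprived replicates 1, 2, 3, 4, 5, 6 and 8 and deprived replicates 2, 3, 5, 6 and 8. The call was also lost with all 24 arrays in 1 fit (adjusted p = 0.344), with median scaling (0.273), with eBayes without a trend (0.146), with the GAPDH ratio in the model (0.0724), with the pair of layers as the block (0.0576) and with no filter (0.0511), at log2 differences of 0.36 to 0.39. The second KCNJ10 probe set gave 0.18 (adjusted p = 0.762).

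GFAP, the filament protein of astrocytes, passed the test in the same comparison, with 7563 ± 3633 (SD, n = 8) in deprived and 3283 ± 596 (SD, n = 8) in nondeprived arrays and a log2 difference of 1.07 (adjusted p = 0.0184). Of the 8 measured astrocyte markers 6 were positive, with a median of 0.20 and 1 call. Their summed signal ranged from 71293 to 104172 in deprived and from 66748 to 97491 in nondeprived parvocellular arrays. KCNJ16, which assembles with KCNJ10, gave -0.13 (adjusted p = 0.915). Of 11 microglial markers 10 were positive, with a median of 0.26, as were 4 of 4 GABAergic markers, with 0.41, and 3 of 3 oligodendrocyte markers, with 0.16. The medians were -0.07 for 6 neuronal, 0.02 for 2 relay neuron and -0.01 for 4 vascular markers, and no marker of these lists passed. The part of these cells in the change of KCNJ10 was not tested.

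The next members by p did not pass. KCNJ13, a weak rectifier known from transporting epithelia, gave 119, 170 and 257 in deprived and 60.9, 97.6 and 173 in nondeprived parvocellular arrays, a log2 difference of 0.88 (SE 0.22, adjusted p = 0.0533) that was positive in 4 of 4 LGNs, with 0.70 to 1.18. Without nondeprived parvocellular replicate 8 its adjusted p was 0.0421. Other KCNJ13 probe sets stayed under the minimum in every array and were not members. MmugDNA.2200.1.S1_s_at averaged 31.6 in deprived and 30.5 in nondeprived parvocellular arrays, and MmuSTS.2786.1.S1_at 13.9 and 19.6. KCNB2 gave 488, 758 and 1092 against 291, 555 and 720, with 0.54 (SE 0.16, adjusted p = 0.113) and 4 of 4 LGNs positive. KCNK10, a leak channel opened by stretch and fatty acids, gave 121, 147 and 278 against 53.1, 97.8 and 148, with 0.73 (SE 0.22, adjusted p = 0.140) and 4 of 4 LGNs positive.

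Values below 0 stood beside them. KCNAB2 gave 3001, 4140 and 4808 in deprived and 4248, 5045 and 9207 in nondeprived parvocellular arrays, with a log2 difference of -0.48 (SE 0.15, adjusted p = 0.139) and 4 of 4 LGNs negative. Its other probe sets gave -0.26 and -0.07, and all 6 probe sets of the KCNAB subfamily were negative, with a median of -0.12 and none past the test. KCNJ12, a strong rectifier related to KCNJ2, gave 1632, 2289 and 3077 against 1719, 2739 and 3906, with -0.30 (adjusted p = 0.250) and 3 of 4 LGNs negative, and its other probe set gave 0.02. The plot by LGN shows these 6 probe sets in each nucleus.

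**Figure D4:**
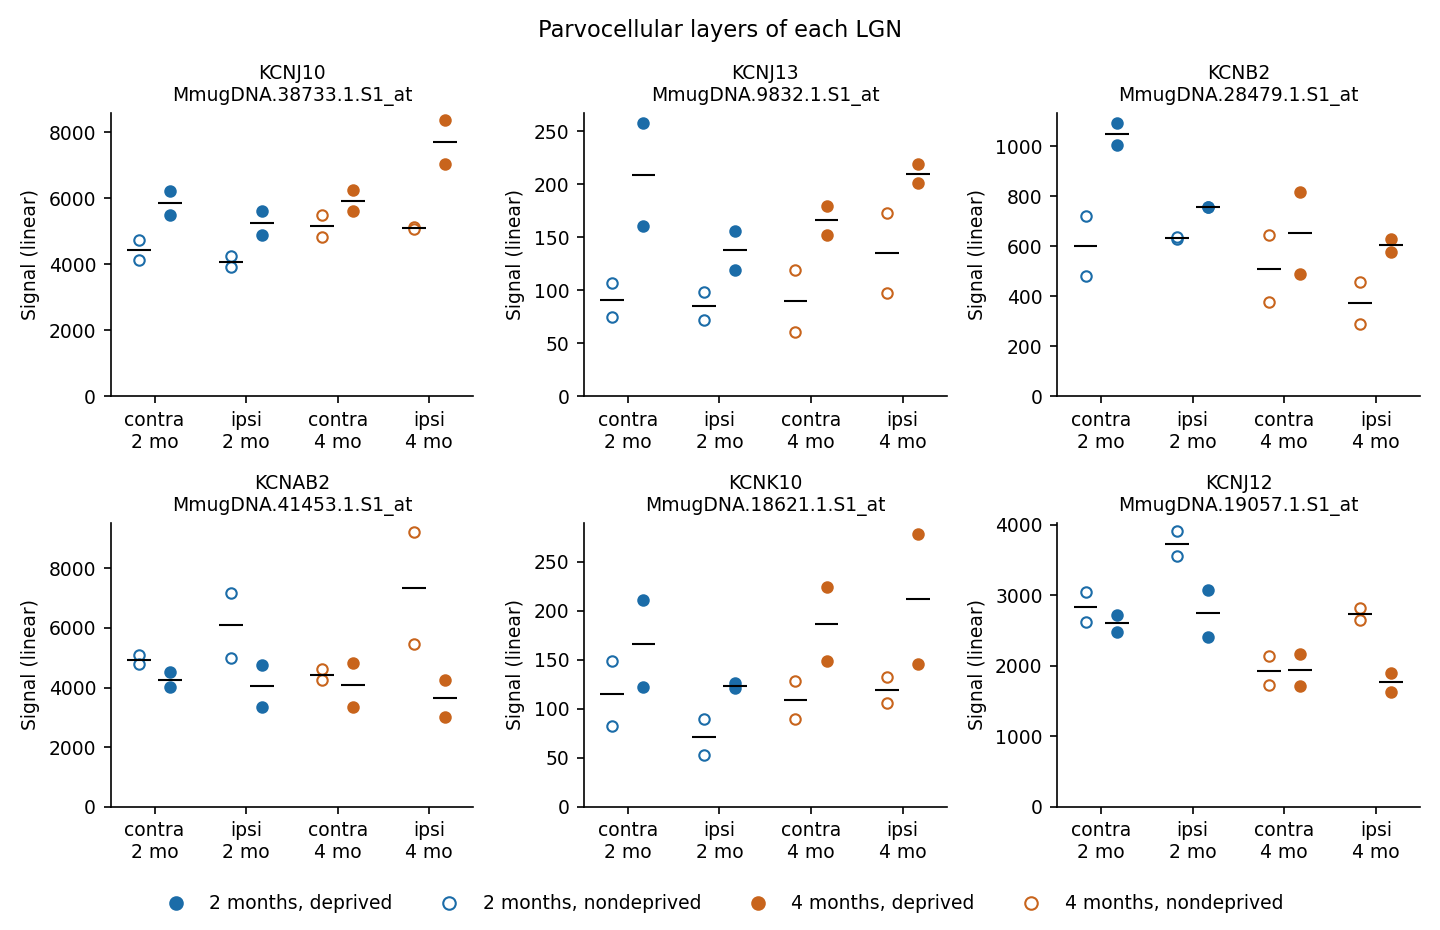
Linear signal of KCNJ10, KCNJ13, KCNB2, KCNAB2, KCNK10 and KCNJ12 in the parvocellular layers of each LGN; open points are nondeprived and filled points deprived layers, blue 2 and orange 4 months, and the black line is the mean of 2 layers. The mean of deprived layers was the higher in 4 of 4 LGNs for KCNJ10, KCNJ13, KCNB2 and KCNK10 and the lower in 4 of 4 for KCNAB2, and only KCNJ10 passed the test.

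By subfamily, the medians in parvocellular layers lay between -0.35 (KCNV, 1 probe set) and 0.35 (KCNB). KCNIP had 4 of 5 positive with a median of 0.28, KCNK 7 of 12 with 0.21, KCNJ 9 of 16 with 0.10 and KCNMB 5 of 6 with 0.10, while KCNH had 3 of 9 positive with -0.23 and KCNQ 0 of 3 with -0.17. Of the 19 genes with several probe sets, 13 had 1 sign throughout, and KCNC4, KCNH6, KCNJ5, KCNJ12, KCNMA1 and KCNMB4 did not. For the 52 members with a mean signal of at least 100, the 95% interval lay within 2-fold for 45 and within 1.5-fold for 23.

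The third comparison, of 4 deprived with 4 nondeprived magnocellular arrays, called 0 members and 0% of all probe sets by limma. At an unadjusted p under 0.05 there were 2 members, or 2.33%, and 2138 of all probe sets, or 5.68%. The median was 0.17 over the members, with 48 of 86 positive and a range of -1.30 to 1.56, and 0.13 over all probe sets. Of the 52 members with a mean signal of at least 100, the 95% interval lay within 2-fold for 19 and within 1.5-fold for 0, so that fewer members were bounded than in parvocellular layers, where 45 and 23 were. The GAPDH ratio also differed most between these groups, and with it as a covariate 0 members passed as well.

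KCNB2 had the smallest p. The deprived magnocellular layers gave 698 and 515 in the ipsilateral and contralateral LGNs at 2 months and 448 and 277 at 4 months, and the nondeprived layers 372, 314, 128 and 90.7 in the same order. Each deprived layer was above the nondeprived layer of its own LGN, while the groups overlapped across LGNs. The log2 difference was 1.26 (SE 0.35, 95% interval 0.49 to 2.03, adjusted p = 0.836), and the second probe set gave 0.34 (adjusted p = 0.900). With all 24 arrays in 1 fit, which shares the spread of the parvocellular arrays, the first probe set passed (1.26, adjusted p = 0.0338). Its mean fold was over the 1.7 that the study's rule asks for, but the change calls of that rule were not used.

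KCNMB4 gave 4509, 5095, 5452 and 4610 in deprived and 8448, 5703, 6786 and 7044 in nondeprived magnocellular layers, in the order of LGNs given for KCNB2. The groups did not overlap, and how many probe sets of the whole array had groups apart in this way is not given. The log2 difference was -0.50 (SE 0.25, adjusted p = 0.836 in limma), and -0.36 (adjusted p = 0.850) without the distant array. Its other 3 probe sets gave -0.54, -0.12 and 0.20. KCNAB2 gave 6751, 4684, 4164 and 5360 in deprived and 7316, 6002, 8082 and 7925 in nondeprived layers, with -0.50 (SE 0.25, adjusted p = 0.836), lower in the deprived layer of each LGN.

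KCNK1 rested on the distant array. Its probe set MmugDNA.12778.1.S1_at gave 24.04 there and 221, 321 and 525.7 in the other deprived layers, against 262, 405, 478 and 643 in nondeprived layers. The log2 difference was -1.30 (adjusted p = 0.836) with that array and -0.58 (adjusted p = 0.839) without it, and the other KCNK1 probe set gave 0.03. KCNC4 (1.49) and KCNN3 (1.56) came from probe sets with signals of 8.49 to 133 and 8.74 to 228 in magnocellular arrays, most of them under the minimum, and each was positive in 3 of 4 LGNs (adjusted p = 0.836 for both). Leaving out an array moved KCNC4 between 0.99 (replicate 3 of either group) and 2.09 (replicate 4), and KCNN3 between 0.83 (replicate 4) and 2.41 (replicate 2). KCNJ10 gave 15189, 9430, 7019 and 12691 in deprived and 7218, 10592, 8757 and 7818 in nondeprived magnocellular layers, with 0.32 (SE 0.29, 95% interval -0.32 to 0.97, adjusted p = 0.869). It was higher in the deprived layer of 2 of 4 LGNs. The larger of these 2 rises, to 15189, was that of the distant array, and no value of this comparison without that array is given for KCNJ10.

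**Figure D5:**
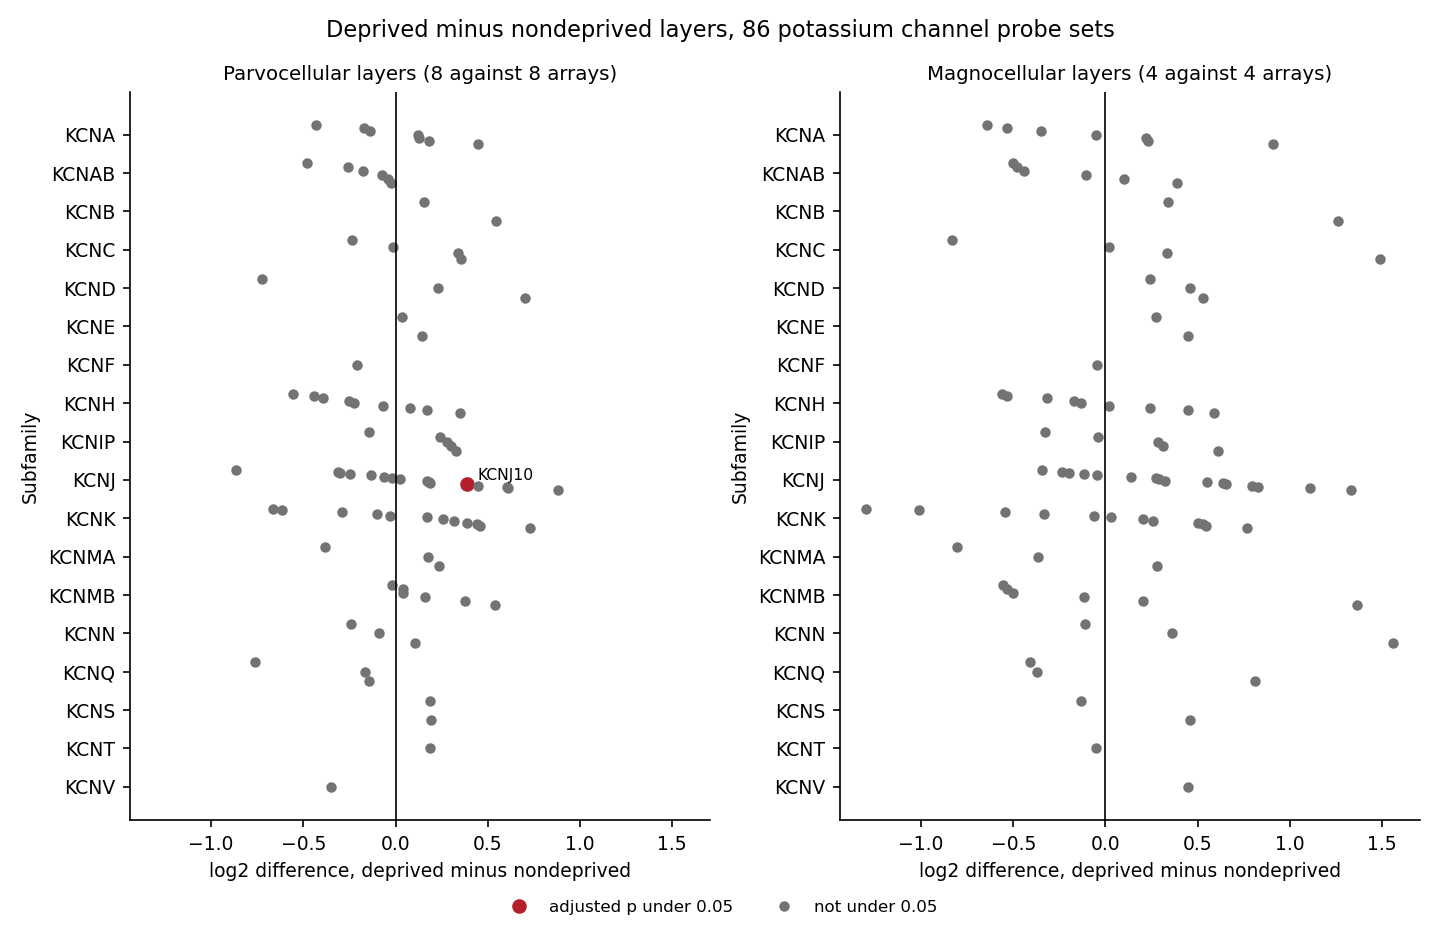
Log2 difference between deprived and nondeprived layers of each of the 86 KCN probe sets (points), by subfamily, in parvocellular (left, 8 against 8 arrays) and magnocellular layers (right, 4 against 4 arrays); red marks an adjusted p under 0.05. KCNJ10 at 0.39 is the 1 red point, and the magnocellular points spread more widely, from -1.30 to 1.56.

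Subfamily medians in magnocellular layers were 0.31 for KCNJ (11 of 16 positive), -0.31 for KCNMB (2 of 6), 0.46 for KCND (3 of 3) and -0.27 for KCNAB (2 of 6). Of the 19 genes with several probe sets, 9 had 1 sign throughout, and KCNAB2, KCNH2, KCNIP2, KCNJ2, KCNJ10, KCNK1, KCNMA1, KCNMB4, KCNQ1 and KCNS2 did not.

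Whether the response to deprivation differed between the layer classes was tested directly. The difference of the effects, parvocellular minus magnocellular, passed for 0 members and 0% of all probe sets in limma. At an unadjusted p under 0.05 there were 3 members, or 3.49%, and 2540 of all probe sets, or 6.75%. For KCNJ10 the difference of the effects was 0.07 (adjusted p = 0.973 in limma), so the call in parvocellular layers alone does not show a difference between the classes. This value includes the distant array, which had the highest KCNJ10 signal, and no fit without that array is given for it. The 6 members of smallest p were KCNMB4 (0.54, adjusted p = 0.664), KCNK1 (1.20, and 0.38 without the distant array), KCNB2 (-0.72, adjusted p = 0.738), KCNN3 (-1.45), a dim KCNJ2 probe set (-1.70) and KCNC4 (-1.14). Leaving out single arrays moved KCNN3 between -2.12 and -0.72, without magnocellular nondeprived replicates 2 and 4, and KCNC4 between -1.67 and -0.67, without magnocellular nondeprived replicates 4 and 3. The median was -0.09 over the members and -0.11 over all probe sets.

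Whether the parvocellular effect differed between the animal deprived for 4 months and that deprived for 2 months was tested in the same way. In limma 0 members and 0% of all probe sets passed the threshold. At an unadjusted p under 0.05 there were 2 members, or 2.33%, and 1465 of all probe sets, or 3.89%. The effect of KCNJ10 differed by 0.01 (adjusted p = 0.994). The members of smallest p were KCND2 (2.32), KCNV2 (-2.50), KCNF1 (-0.72), KCNK16 (-2.00), the dim KCNJ2 probe set (-1.86) and KCNH8 (0.45), each with an adjusted p of 0.973. The signals of KCND2, KCNV2, KCNK16 and that KCNJ2 probe set lay mostly under the minimum. The median was -0.01 over the members and -0.05 over all probe sets.

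Genes that work with these channels but do not bear a KCN symbol were taken as lists. Of 22 partners that anchor or modify potassium channels, 11 were measured, among them CNTNAP2 and LGI1 of the axonal KCNA complex, DPP10 of A-type channels and the ankyrins ANK2 and ANK3. None passed for deprivation in parvocellular or magnocellular layers or between layer classes over all layers. The medians were -0.24, 0.06 and -0.08 in that order, beside -0.01, 0.13 and -0.03 over all probe sets. Deprived and nondeprived parvocellular means were 3870 ± 633 and 4663 ± 385 (SD, n = 8) for LGI1, a log2 difference of -0.28 (adjusted p = 0.205), and 3444 ± 603 and 2694 ± 512 for the scaffold DLG1, 0.36 (adjusted p = 0.197).

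A list of 19 genes held the sodium pump with its regulators, which takes potassium up, and cotransporters of potassium and chloride, most of which carry it out. Of these 9 were measured, and 1 passed the test between layer classes as lower in parvocellular layers, beside 1.35% of all probe sets. SLC12A5, the neuronal cotransporter that carries potassium and chloride out together, was the gene that passed, with group means of 6989 and 7571 in deprived and nondeprived parvocellular and 9239 and 10724 in deprived and nondeprived magnocellular arrays (log2 difference -0.46, SE 0.08, adjusted p = 0.0012). None passed for deprivation. FXYD6, a regulator of the sodium pump, came nearest in parvocellular layers with 2229 ± 1115 (SD, n = 8) in deprived and 1179 ± 313 (SD, n = 8) in nondeprived arrays and 0.81 (adjusted p = 0.0698). The pump subunit ATP1B1 gave -0.34 between layer classes (adjusted p = 0.0897). The medians were 0.10 and 0.17 for deprivation in parvocellular and magnocellular layers and 0.05 between classes, beside -0.01, 0.13 and -0.03 over all probe sets.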

How the data were processed

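The authors extracted RNA from each laser-captured layer with a PicoPure kit, amplified it in 2 rounds with T7 RNA polymerase and hybridized it to the Rhesus Macaque Genome Array. The deposited values are signal intensities on a linear scale that the authors computed with GCOS, scaled so that the mean of every array, trimmed by 2% on either side, is 500; their detection and change calls are not used here. The number of arrays and of animals limits the precision. Amplification from the 3' end can make the signal depend on RNA length. Of 52766 probe sets other than 99 controls, the platform table gave 24956 exactly 1 symbol, 361 several and 27449 none. The entrez ID of 109 of 112 KCN probe sets was found in RefSeq, in 109 cases with the same symbol.

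Signals under 1 were set to 1 before log2. Probe sets with 100 or more in at least 1 array were fitted with limma 3.58.1 and statmod 1.5.0 in R 4.3.3, using eBayes with a trend and the LGN as a fixed block. Deprivation was fitted on 16 parvocellular or 8 magnocellular arrays, and layer class and its interaction with deprivation on 24. P-values were two-sided and adjusted by Benjamini and Hochberg over all probe sets, with a threshold of 0.05, and intervals are 95% intervals of the moderated fit. The fits were tested on simulated data.

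Named genes are the KCN probe sets that passed and whose higher group averaged 100 or more, filled up to 6 a comparison by the smallest p, and for levels the 1 to 3 genes of the highest signal in a subfamily, each by its brightest probe set. KCNAB2 was named in any case, and KCNA1, KCNA3, KCNC1, KCNH5 and (for deprivation) KCNJ16 after their values were seen. A further gene that the rule names is not reported here. The members and lists were chosen with earlier results of these data known. Alternatives were other normalizations, filters, variance models, blocks and samples, and the GAPDH ratio as a covariate. A fold rule modeled on the study's was also applied. It asked for a mean fold of 1.7 and ratios in 1 direction in at least 6 of 8 parvocellular or all 4 magnocellular pairs. The study asks for increase or decrease calls in those pairs, which were not used.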

Additional observations from a re-analysis of the deposited data

Results flagged for a closer look

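Among 344 groups of signals (86 probe sets in 4 groups of arrays), 24 held 1 array far from the others by Dixon's ratio. Chance meets this rule in about 1 in 20 groups when probe sets are not chosen by their highest signal. Members were chosen in that way: KCND3 and a KCNH6 probe set entered through 1 array each, which is flagged below. The count of 24 can therefore not be read against that rate. Of the 24, 16 lay in the contralateral LGN at 2 months, including 5 in its deprived layer 4 and 4 in its nondeprived layer 3, the arrays with more probe sets at the minimum named above.

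In the deprived layer 4 of that LGN the signals were 120 for KCNA5 (others 36.4 to 60.7), 156 for KCNC4 (24.4 to 69.0), 208 and 138 for the KCNJ5 probe sets (6.06 to 64.7 and 29.4 to 68.1) and 259 for KCNJ9 (61.6 to 138). In its nondeprived layer 3 they were 141 for KCNA5 (22.3 to 72.1), 124 for KCND3 (10.2 to 37.7), 279 for KCNH3 (27.9 to 96.5) and 222 for KCNJ5 (4.18 to 24.1). In its nondeprived magnocellular layer 2 they were 3297 for KCNA1 (134 to 226), 307 for KCNAB3 (32.2 to 76.4) and 976 for a KCNMA1 probe set of the _s_at type (91.6 to 119). Its layer 6 gave 106 for KCNH6 (5.82 to 40.1) and 930 for KCNS2 (449 to 629), its layer 5 gave 62.6 for KCNH6 (10.7 to 24.2), and its layer 1 gave 4648 for KCNK5 (1952 to 1970).

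In the other LGNs, the ipsilateral LGN at 4 months gave 546 for KCNA3 in its deprived layer 3 (80.5 to 192), while its nondeprived layer 4 gave 104 for KCNMA1 (40.4 to 69.9) and its nondeprived layer 1 156 for the second KCNS2 probe set, below the others (321 to 354). The contralateral LGN at 4 months gave 4413 for the _s_at probe set of KCNAB1 (2194 to 3237) and 167 for KCNN3 (63.0 to 104) in its nondeprived layer 3, and 609 for KCNIP4 in its deprived layer 4 (171 to 349). The ipsilateral LGN at 2 months gave 503 for KCNJ8 in its nondeprived layer 1 (258 to 287) and 247 for KCNK16 in its deprived layer 2, the distant array (18.9 to 50.8).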

How the results depend on the processing

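No value of a named member changed its direction in the 831 refits of single probe sets: 768 stayed on their side of the threshold, 60 lost it and 3 gained it. Most of the named values had not passed in the main fit and had no call to lose, so the 768 do not measure how stable the calls were. The 60 losses fell on the few values that had passed. All were named for passing or for a small p, which favors a steady direction. In parvocellular layers the count of 1 member changed by deprivation was 0 with median scaling, with no filter, with eBayes without a trend, at 2 months alone, at 4 months alone, with the GAPDH ratio as a covariate and with all 24 arrays in 1 fit, and 2 with a mean signal of 100 or more (KCNJ10 and KCNJ13); leaving out single arrays gave 0 to 1. Over all probe sets these fits called 76, 339, 15, 7, 1, 259, 120 and 596, against 365. A fold rule modeled on the study's gave 1 member, KCNJ13 and not KCNJ10, and 1295 of all probe sets. It left out the study's increase and decrease calls, so its counts are not those of the study's own rule. In magnocellular layers 0 members became 1 with all 24 arrays in 1 fit (KCNB2, adjusted p = 0.0338, beside 402 of all probe sets) and 3 by the fold rule (KCNK1 lower, KCNB2 and KCNJ5 higher, beside 2582). Of all magnocellular probe sets, 46 were called at 4 months alone, 1 at 2 months alone, 2 with the GAPDH covariate and 1 with the animal in place of the LGN, no replicate block, which called 0 members.

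Between layer classes the count of 6 members was 1 at 2 months alone, 1 at 4 months alone, 3 within nondeprived layers and 1 within deprived layers, with 222, 368, 443 and 367 of all probe sets called against 1355. Leaving out single arrays gave 4 to 7. KCNJ10 lost its call at 4 months alone (adjusted p = 0.116). KCNS2 and KCNJ6 lost theirs with median scaling (0.0913 and 0.110) and with the GAPDH covariate (0.0792 and 0.475), and KCNJ16 with that covariate (0.0733). KCNS2 also lost it with quantile normalization (0.0725), and KCNJ6 with eBayes without a trend (0.0791). KCNJ6 lost its call in 10 and KCNS2 in 5 of 24 fits that left out 1 array, the lowest KCNJ6 value being 0.39 without magnocellular nondeprived replicate 2. Both interactions gave 0 members in every fit run. The causes were not tested.

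Layers 3 and 4, and 5 and 6, of an LGN are paired only by number: after removing group and LGN means their correlations were 0.330, -0.0252, 0.0932 and 0.0559 in the 4 LGNs. With these pairs as the replicate block in place of the LGN, 0 members and 350 of all probe sets were called in parvocellular layers, and KCNJ10 gave an adjusted p of 0.0576; the difference between durations kept 0 members.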
